A study of Mus musculus with 6 samples.

Results

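The Ikaros family of transcription factors was followed in naive CD8 T cells sorted by the brightness of a Nur77-GFP reporter. The family comprises 5 genes: Ikzf1, Ikzf2, Ikzf3, Ikzf4 and Ikzf5. They were taken by symbol, and all 5 were among the 11162 genes listed in the expression table. The family was picked for description after the comparison of the 2 sorted populations was known, with Ikzf2 standing out in it. The values of the members in that comparison are therefore given as a description, with standard errors and without p-values. RNA had been sequenced from 3 GFP-hi and 3 GFP-lo samples of spleen. All 6 came from mice with the transgene Nur77-GFP (Tg(Nr4a1-EGFP)GY139Gsat), in which green fluorescent protein is driven by regulatory sequence of Nr4a1, the gene of the receptor-induced nuclear protein Nur77. All 6 also carried OT-I, a transgenic T-cell receptor of a single specificity, so the cells do not represent a normal repertoire. Both populations were sorted as naive cells by a gate that included CD8+, CD44lo and Qa2hi, and they differed by the reporter gate, Nur77-GFPhi or Nur77-GFPlo. The age of the mice, and whether each library came from its own animal or from pooled animals, are not given in the sources used here, so p-values measure only the spread between these samples.

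Ikaros family proteins are zinc-finger transcription factors of lymphocytes. Fingers near the amino terminus bind DNA, and a pair of fingers at the carboxy terminus joins members into homodimers and heterodimers, so the mixture of members in a cell matters as well as the amount of each. Ikaros, the product of Ikzf1, is needed for lymphocyte development and restrains T-cell activation. Helios (Ikzf2) is best known from regulatory T cells and from T cells that met strong self-reactive signals. Aiolos (Ikzf3) is abundant in B cells and is also made by T cells, Eos (Ikzf4) acts as a corepressor partner in regulatory T cells, and Pegasus (Ikzf5) is the most divergent member. The proteins act largely through chromatin complexes such as NuRD, a nucleosome remodeller with histone deacetylases.

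Because the members are relatives, their transcripts were first compared to see how far reads could be told apart. The stretch shown encodes a finger of the conserved DNA-binding region in each gene, from the first cysteine codon to the last histidine codon, 63 bases in the coding direction from GENCODE M21 transcripts (GRCm38). Capitals mark the codons of the 2 cysteines and 2 histidines that hold the zinc ion.
Ikzf1: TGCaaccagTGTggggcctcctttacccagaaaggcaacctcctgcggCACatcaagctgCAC
Ikzf2: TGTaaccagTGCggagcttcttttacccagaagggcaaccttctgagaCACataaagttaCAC
Ikzf3: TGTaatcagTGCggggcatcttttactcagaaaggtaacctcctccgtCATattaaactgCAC
Ikzf4: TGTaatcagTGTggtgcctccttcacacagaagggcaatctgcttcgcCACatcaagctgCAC
Ikzf5: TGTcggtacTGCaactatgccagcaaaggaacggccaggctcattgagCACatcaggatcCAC
Against Ikzf1, 51 of the 63 bases were the same in Ikzf2, 51 in Ikzf3 and 53 in Ikzf4, and 29 in the closest finger of Ikzf5. Over the full transcripts, the longest stretch of identical bases between any 2 members was 32 bases, between Ikzf2 and Ikzf4. Stretches of 30 bases that these 2 genes shared made up 0.034% of those in Ikzf2 and 0.065% of those in Ikzf4. No other pair of members shared a stretch of 30 bases. Reads from one member thus have little sequence in common with another.

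Other genes on the opposite strand were a larger source of uncertainty for 1 member. Of 5721 exon bases of Ikzf5, 4652 also lie in exons of Pstk, the gene of a kinase for selenocysteine synthesis, on the other strand. No source used here states strand-aware counting, so reads of Ikzf5 and Pstk may not be separable, and the values of Ikzf5 are uncertain. For Ikzf2, 144 of 11613 exon bases are shared with the antisense gene Gm29114. For Ikzf4, 37 of 5995 are shared with Gm26876 on the opposite strand. Exons of Ikzf1 and Ikzf3 share no base with those of another gene in this annotation.

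Values are RPKM, that is reads scaled to the length of the gene and the size of the library, so that levels of different genes can be set side by side. The recovered depth ran from 26170000 to 35940000 reads per library. A transcript at an RPKM of 1 therefore rested on 26.2 to 35.9 reads per kilobase. Of the 12 CD8 T cell markers, 11 were listed, led by Cd8b1 at a mean of 812 RPKM. Cd44, the gene of a sort marker, lay at a mean of 2.36 RPKM with a log2 fold change of -0.06, and Il7r, the gene of the interleukin-7 receptor of naive cells, fell from 112 ± 6.71 to 64.0 ± 5.53 RPKM (SD, n = 3 each), by 0.80 on the log2 scale (limma, adjusted p = 0.0022). The Qa2 gene H2-Q7 lay at 10.5 to 12.5 RPKM in GFP-hi and 13.6 to 18.8 RPKM in GFP-lo libraries without passing (limma, adjusted p = 0.11). The more abundant H2-Q9, of the same marker list, lay at 78.7 to 109 and 106 to 129 RPKM. Its groups overlapped, and it did not pass either (log2 fold change -0.33, limma adjusted p = 0.17). Reads of both genes may be split with near-identical H2-Q copies. The heat-shock gene Hspa1a lay at 1100 RPKM in GFP-hi replicate 2 and 1234 RPKM in GFP-lo replicate 2, against 152 to 235 RPKM in the other 4 libraries. Calls of named genes that ended without these 2 libraries are given as such beside the result.

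Helios transcripts were higher in GFP-hi cells. Ikzf2 (Entrez 22779, chr1:69531207-69687351, minus strand, GRCm38) measured 3.24, 3.95 and 2.94 RPKM across GFP-hi replicates 1 to 3. The GFP-lo replicates 1 to 3 gave 1.05, 1.02 and 1.34 RPKM. All 3 GFP-hi libraries lay above all 3 GFP-lo libraries, and the lowest GFP-hi value was 2.18 times the highest GFP-lo value. GFP-hi cells averaged 3.37 ± 0.521 and GFP-lo cells 1.14 ± 0.180 RPKM (SD, n = 3 each), a ratio of 2.97. On the log2(RPKM + 1) scale, which understates changes of low genes, the difference was 1.03 with a standard error of 0.10. On the plain log2 RPKM scale it was 1.57 with a standard error of 0.18. The depth behind it was 28.9 to 134 reads per kilobase. In these bulk samples, more Helios RNA in each cell and more cells that make it cannot be told apart. Without replicate 2 of both groups the log2(RPKM + 1) difference was 0.90, and leaving out any 1 library gave 0.94 to 1.10.

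Aiolos transcripts were also higher in GFP-hi cells, by a smaller factor and from a higher level. Ikzf3 (Entrez 22780, chr11:98464610-98546031, minus strand) measured 14.1, 14.8 and 14.8 RPKM across GFP-hi replicates 1 to 3. GFP-lo replicates 1 to 3 gave 10.4, 9.98 and 9.70 RPKM. The groups did not overlap, and libraries of one group lay close together. GFP-hi cells averaged 14.6 ± 0.427 and GFP-lo cells 10.02 ± 0.342 RPKM (SD, n = 3 each), a ratio of 1.45. The log2(RPKM + 1) difference was 0.50 with a standard error of 0.05, and 0.48 without replicate 2 of both groups. The SD within groups on that scale, 0.042, was exceeded by 91.4% of tested genes, and the median over these genes was 0.090. For Ikzf2 the corresponding SD was 0.146, which 16.7% of tested genes exceeded.

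Eos transcripts were the least abundant of the family. Ikzf4 (Entrez 22781, chr10:128630839-128669671, minus strand) measured 0.462, 0.505 and 0.574 RPKM across GFP-hi replicates 1 to 3, and 0.232, 0.187 and 0.281 RPKM across GFP-lo replicates 1 to 3. All GFP-hi libraries again lay above all GFP-lo libraries. GFP-hi cells averaged 0.514 ± 0.0565 and GFP-lo cells 0.233 ± 0.0470 RPKM (SD, n = 3 each), a ratio of 2.20. These values rested on 5.31 to 17.1 reads per kilobase, so counting error is larger here than for the other members. For 41 listed genes of nasal receptors, read as a background level, the median was 0.292, 0.037 and 0.419 RPKM in GFP-hi replicates 1 to 3. It was 0.038, 0.263 and 0.583 RPKM in GFP-lo replicates 1 to 3. These medians overlap the Ikzf4 values, and the part of such background in the Ikzf4 values was not tested. With a mean of 0.374 RPKM over 6 libraries, Ikzf4 fell below the minimum of 1 RPKM that genes had to reach to be tested. In a fit without that minimum its log2(RPKM + 1) difference was 0.30 with a standard error of 0.09, and 0.27 without replicate 2 of both groups. On the plain log2 RPKM scale the difference was 1.15 with a standard error of 0.19.

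Ikaros itself was the most abundant member, and its levels in the 2 populations overlapped. Ikzf1 (Entrez 22778, chr11:11684962-11772930, plus strand) measured 42.0, 38.6 and 42.1 RPKM across GFP-hi replicates 1 to 3, and 47.2, 41.6 and 42.0 RPKM across GFP-lo replicates 1 to 3. The highest value was that of GFP-lo replicate 1 and the lowest that of GFP-hi replicate 2. The log2(RPKM + 1) difference was -0.09 (standard error 0.07), and its 95% interval ran from -0.24 to 0.07.

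Pegasus transcripts, which Pstk reads may have joined, overlapped between the populations as well. Ikzf5 (Entrez 67143, chr7:131388649-131410518, minus strand) measured 5.57, 5.33 and 5.94 RPKM across GFP-hi replicates 1 to 3, and 6.01, 5.91 and 6.92 RPKM across GFP-lo replicates 1 to 3. Its log2(RPKM + 1) difference was -0.14 (standard error 0.07), and its 95% interval ran from -0.31 to 0.03. Pstk lay at 3.25 to 4.29 RPKM in GFP-hi and at 3.07 to 3.42 RPKM in GFP-lo libraries, and its difference of 0.16 did not pass the test (limma, adjusted p = 0.38).

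**Figure D1:**
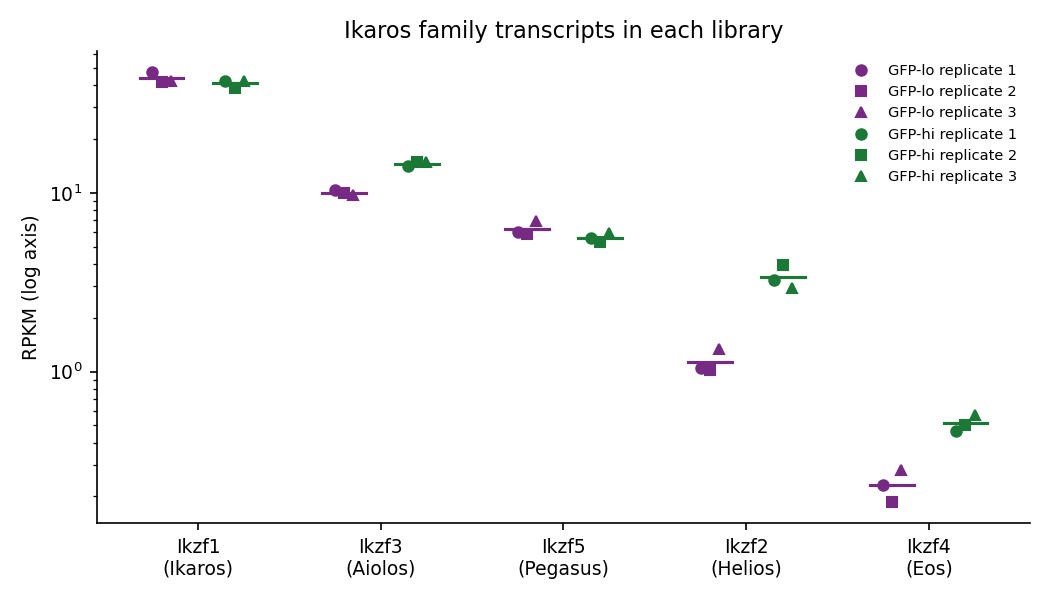
RPKM of the 5 Ikaros family genes (log axis), with 1 symbol per library, green for GFP-hi and purple for GFP-lo, and a line at each mean. The 2 populations are separate for Ikzf3, Ikzf2 and Ikzf4 and overlap for Ikzf1 and Ikzf5.

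Of the 5 members, 3 had all GFP-hi libraries above all GFP-lo libraries, as did 16% of all 11162 listed genes, and none had them all below, as did 8.95%. Of the 4 members tested, Ikzf2 and Ikzf3 were among the genes higher in GFP-hi at a limma adjusted p under 0.05, which made up 2.46% of the 9351 genes tested. None was among the lower genes, which made up 1.49%. Since the family was chosen with this comparison in view, these counts are a description. The signs of the 5 differences were the same in the 15 or 16 alternative fits that held each member. By size of the log2(RPKM + 1) difference, Ikzf2 ranked 23 and Ikzf3 ranked 110 from the highest among the tested genes.

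**Figure D2:**
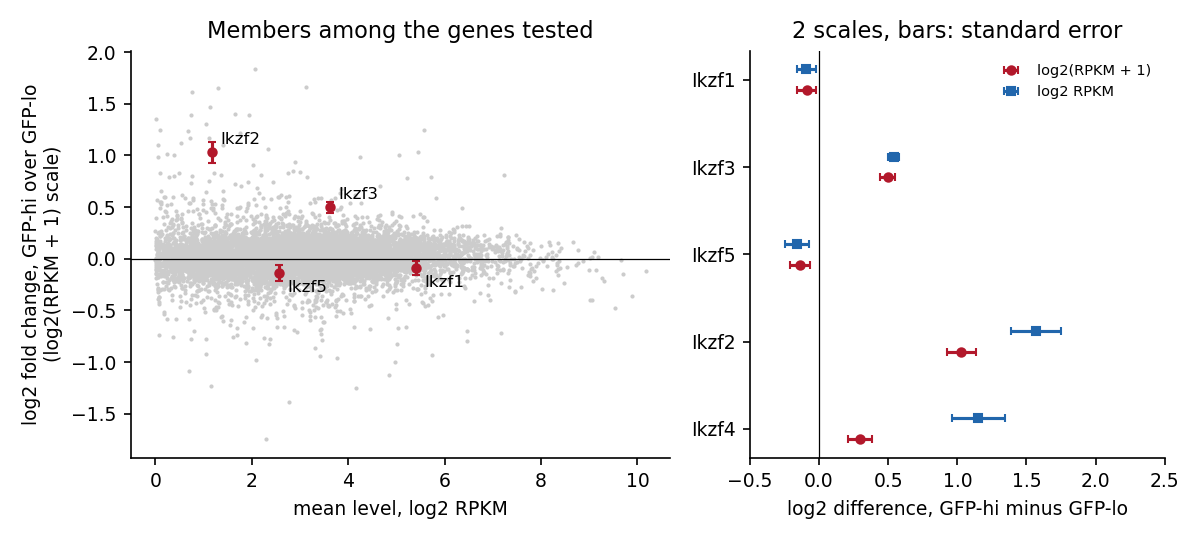
Left, log2 fold change of each tested gene (grey) against its mean level, with the 4 tested members in red. Right, the difference of each member on the log2(RPKM + 1) scale (circles) and on the log2 RPKM scale (squares). Bars are standard errors. Ikzf2 and Ikzf3 lie above 0, and the low-level genes Ikzf2 and Ikzf4 differ most between the 2 scales.

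The order of the members by level was Ikzf1, Ikzf3, Ikzf5, Ikzf2 and Ikzf4, and it was the same in each of the 6 libraries. No range of RPKM over the 6 libraries touched that of its neighbour in the order. The closest neighbours were Ikzf5 and Ikzf2 in GFP-hi cells, where Ikzf5 was 1.35 to 2.02 times as high as Ikzf2. In GFP-lo cells it was 5.15 to 5.82 times as high. Ikzf1 was 2.61 to 2.98 times as high as Ikzf3 in GFP-hi cells and 4.17 to 4.55 times as high in GFP-lo cells.

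The summed RPKM of the family was 65.0 ± 1.59 in GFP-hi and 61.3 ± 3.24 in GFP-lo libraries (SD, n = 3 each), and the groups overlapped in the sum. Its make-up differed more than its sum. Ikaros held 61.1% to 64.3% of the sum in GFP-hi and 69.7% to 72.8% in GFP-lo libraries. Aiolos held 21.5% to 23.4% and 16.0% to 17.0%. Helios held 4.42% to 6.25% and 1.62% to 2.23%. Eos stayed below 1% in each library, with 0.71% to 0.87% and 0.32% to 0.47%. Pegasus held 8.43% to 8.95% and 9.26% to 11.5%. The ranges of the 2 populations were separate for each of the 5 shares, and since shares sum to a whole, a rise of one lowers the others.

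**Figure D3:**
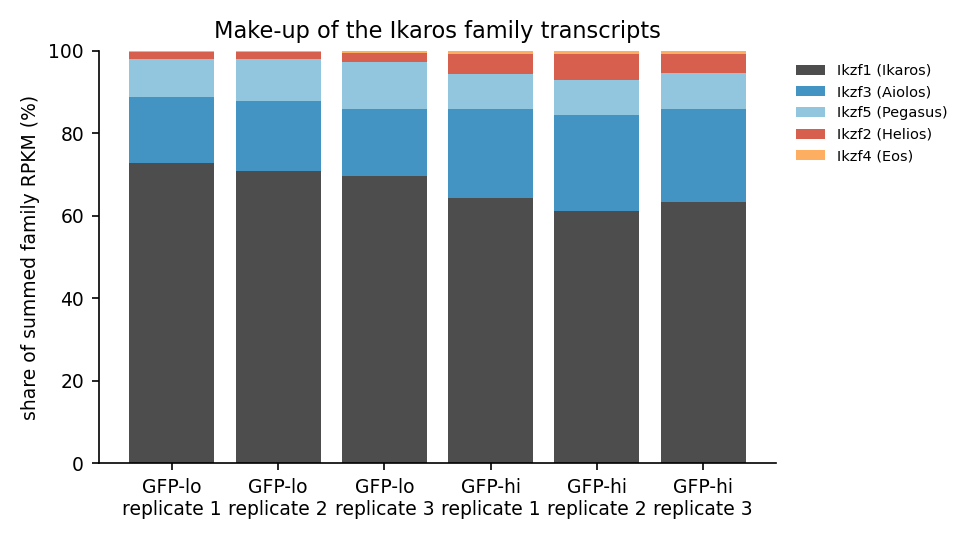
Share of each Ikaros family gene in the summed family RPKM (percent) in each of the 6 libraries. Ikaros takes a smaller and Aiolos and Helios a larger part of each GFP-hi bar than of each GFP-lo bar.

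Genes were then ranked by how closely their profile over the 6 libraries followed that of Ikzf2. The measure was the root mean square difference between log2(RPKM + 1) values centred on each gene's mean, over 9350 other genes. The closest was Itm2a, which encodes a membrane protein induced in thymocytes at positive selection, with a difference of 0.084. Itm2a measured 42.5, 49.0 and 41.8 RPKM across GFP-hi replicates 1 to 3, and 20.7, 22.5 and 21.7 RPKM across GFP-lo replicates 1 to 3. Acot7, an acyl-CoA thioesterase gene (0.118), Lgals1, the galectin-1 gene (0.135), Cd200, the gene of an inhibitory ligand (0.136), and Cd81, a tetraspanin gene (0.140), followed. The median over all genes was 0.526. Ikzf3 stood at 0.297, rank 80, whereas Ikzf1 stood at 0.585 and Ikzf5 at 0.599. Likeness over 6 libraries in 2 groups mostly reflects the difference between the groups, so it carries no test. The scale matters too, since it compresses low genes such as Ikzf2, by 1.03 here against 1.57 on plain log2 RPKM, more than abundant ones such as Itm2a. A close profile is therefore not an equal ratio of RPKM.

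**Figure D4:**
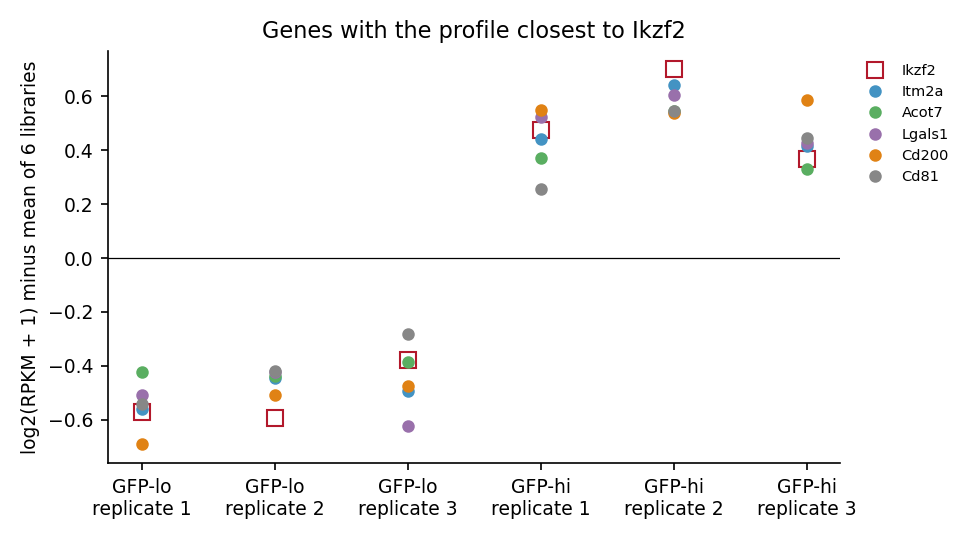
Log2(RPKM + 1) of Ikzf2 (open squares) and of the 5 genes with the closest profile (circles) in each library, relative to each gene's mean over the 6 libraries. Each of the 6 genes lies below 0 in GFP-lo and above 0 in GFP-hi libraries.

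Chromatin partners through which Ikaros proteins act differed by at most 0.46 on the log2 scale. The counts that follow stand beside shares of 2.46% higher and 1.49% lower over all genes tested, so 1 gene in a list this short says little about the list. All 13 NuRD genes were tested, and 1 was higher and none lower, with a median log2 fold change of 0.08 beside 0.02 over all genes tested. The sign was positive for 13 of 13 genes, beside 5187 of all 9351 genes tested. With trimmed mean of M values scaling or quantile normalization it was positive for 10 of the 13, beside 4508 and 4701 of all genes tested. Median centring gave 12, beside 5045 of all genes tested, and leaving out any 1 library gave 10 to 12. Rbbp7, a histone-binding subunit, rose from 64.4 ± 1.63 to 76.8 ± 1.54 RPKM (SD, n = 3 each), by 0.25 on the log2 scale (limma, adjusted p = 0.032). That call was lost whichever library was left out (adjusted p = 0.056 to 0.14), and without replicate 2 of both groups (0.15). The most abundant subunit gene, Mta2, lay at 90.8 RPKM with a log2 fold change of 0.02, and the deacetylase gene Hdac1 at 35.9 RPKM with 0.17; neither passed the test.

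Among 10 tested genes of other corepressors, 1 was higher and none lower, with a median of 0.04. Ezh2, the methyltransferase of polycomb repression, rose from 2.94 ± 0.263 to 4.43 ± 0.271 RPKM (SD, n = 3 each), by 0.46 on the log2 scale (limma, adjusted p = 0.015). Leaving out GFP-hi replicate 1 (adjusted p = 0.071) or 3 (0.063), or GFP-lo replicate 1 (0.056) or 2 (0.072), or replicate 2 of both groups (0.074), ended that call. Ctbp1, a corepressor known to bind Eos and Ikaros, lay at 30.2 RPKM with a log2 fold change of 0.02. Of 12 genes of the SWI/SNF remodelling complex none passed limma in either direction (median 0.0022), with Smarcd2 the most abundant at 46.4 RPKM. An unadjusted p under 0.05 in limma was reached by 1 of the 12, beside 1885 of the 9351 genes tested.

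The ligase that holds cereblon, through which lenalidomide-type drugs remove Ikaros and Aiolos, was tested with the kinase CK2 and phosphatase PP1 that act on Ikaros. None of the 11 genes passed limma in either direction, and the median log2 fold change was 0.07. An unadjusted p under 0.05 in limma was reached by 2 of the 11, beside 1885 of the 9351 genes tested. Crbn, the cereblon gene, lay at 24.1 RPKM with a log2 fold change of -0.07, and Ddb1 at 40.1 RPKM with -0.04. Ppp1ca, a PP1 catalytic subunit gene, was the most abundant at 118 RPKM, with 0.18.

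Of 28 genes known as targets of Ikaros proteins in lymphocytes, 19 were tested, 1 was higher and 1 lower, and the median was 0.05. Bcl6, which encodes a transcriptional repressor, rose from 1.51 ± 0.211 to 2.47 ± 0.274 RPKM (SD, n = 3 each), by 0.47 on the log2 scale (limma, adjusted p = 0.031). Leaving out GFP-hi replicate 1 (adjusted p = 0.085) or 3 (0.10), or GFP-lo replicate 2 (0.12) or 3 (0.099), or replicate 2 of both groups (0.15), ended it. Socs3, a suppressor of cytokine signalling, fell from 69.5 ± 6.83 to 36.5 ± 9.14 RPKM, and its log2 difference was -0.93 (limma, adjusted p = 0.021). Without GFP-hi replicate 3 (adjusted p = 0.052) or without GFP-lo replicate 1 (0.062), 2 (0.085) or 3 (0.067), Socs3 did not pass. The abundant targets Cd8b1 (-0.01), Lck (0.03) and Cd8a (0.07) did not pass, nor did Ifng at 3.54 RPKM (log2 fold change 0.08, standard error 0.31).

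Genes commonly measured together with Helios in regulatory T cells and in T cells selected by strong self ligands held more of the differences. This list was drawn up with earlier results of these data known, so its count is not independent evidence. Of 30 genes 15 were tested, 6 were higher and 1 lower, and the median log2 fold change was 0.47. Without replicate 2 of both groups, 5 were higher and none lower. At a minimum mean of 5 RPKM, 2 of 7 tested genes were higher and none lower, with a median of 0.26. Izumo1r, Cd200, Cd83 and Pdcd1 averaged under 1 RPKM in GFP-lo libraries (0.959, 0.549, 0.835 and 0.791). They reached the minimum of 1 RPKM through their GFP-hi values. Nt5e averaged 0.752 RPKM in GFP-hi libraries and reached it through GFP-lo. Pdcd1, which did not pass the test, was the gene at the median of 0.47. Tnfrsf9 (1.83), which encodes the costimulatory receptor CD137, Itgae (1.25), Izumo1r (1.17), Cd200 (1.12) and Cd160 (0.98) rose on the log2 scale. Each of these kept an adjusted p under 0.05 in every alternative fit that tested it. Cd83, an activation marker gene, rose by 0.53, a call held without GFP-hi replicate 2 but lost without each other library (limma, adjusted p = 0.074 to 0.092) and without replicate 2 of both groups (0.077). Nt5e, the gene of the ectoenzyme CD73, fell by 0.58, a call lost without GFP-hi replicate 3 (adjusted p = 0.061), GFP-lo replicate 2 (0.071) or replicate 2 of both groups (0.12).

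Izumo1r, the gene of folate receptor 4, is a surface marker gene of regulatory T cells. Its mean was 3.40 ± 0.364 RPKM among GFP-hi and 0.959 ± 0.149 RPKM among GFP-lo libraries (SD, n = 3 each), beside 3.37 and 1.14 RPKM for Ikzf2. The most abundant genes of the list, Cd5 at 83.8 RPKM (0.23), Il2rb at 68.4 RPKM (0.26) and Nr4a1 at 61.1 RPKM (0.02), did not pass the test. Among regulatory T cell genes of the list that were tested, Ctla4 (log2 fold change 0.53), Tnfrsf18 (0.03) and Tnfrsf4 (-0.18) did not pass either. Gpr83 and Nrp1 averaged under 1 RPKM and were not tested. Gpr83 lay at 0.62 to 1.61 RPKM in GFP-hi and 0.09 to 0.67 RPKM in GFP-lo libraries, and Nrp1 at 0.68 to 0.93 and 0.52 to 0.70 RPKM. The groups overlapped for both.

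As a description, set beside 32 tested transcription factor genes of T-cell fate, Ikzf2 had a larger log2 fold change than any of them, and their values ran from -0.32 to 0.60. In that list 2 genes were higher, none was lower and the median was -0.0032. Id2, an inhibitor of E proteins, rose from 27.8 ± 1.99 to 36.0 ± 2.74 RPKM, by 0.36 on the log2 scale (limma, adjusted p = 0.040). That call held without GFP-hi replicate 3 and was lost without each other library (adjusted p = 0.082 to 0.13) and without replicate 2 of both groups (0.15). Tox, a factor linked to thymic selection and exhaustion, rose from 9.90 ± 0.386 to 12.3 ± 0.229 RPKM, by 0.29 on the log2 scale (limma, adjusted p = 0.026). Without GFP-hi replicate 1 (adjusted p = 0.10) or 3 (0.11), without GFP-lo replicate 2 (0.11) or 3 (0.096), or without replicate 2 of both groups (0.11), Tox did not pass. The most abundant factors, Klf2 at 567 RPKM, Tcf7 at 423 RPKM and Klf6 at 218 RPKM, did not pass.

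**Figure D5:**
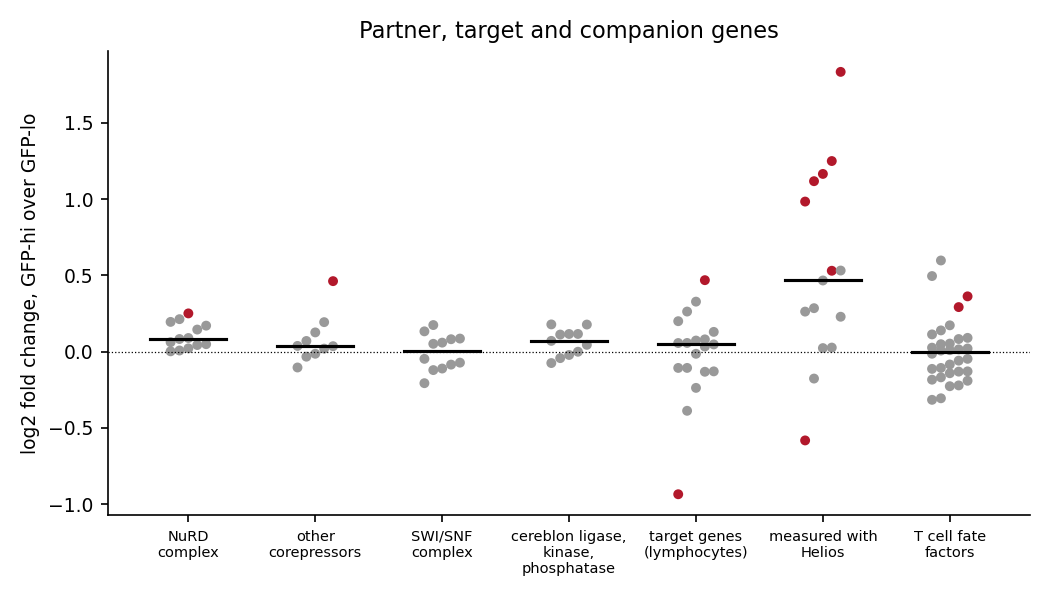
Log2 fold change of each tested gene (points) in 7 lists of partner, target and companion genes of the Ikaros family, red where the limma adjusted p was under 0.05, with a line at each list's median. The list of genes measured together with Helios holds 7 of the red points and a median of 0.47; the other medians lie between -0.0032 and 0.08.

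Markers of other cells that make Ikaros family genes were read beside these values. Of 6 marker genes of CD4 T cells and their regulatory subset, Ctla4 and Cd40lg were listed. Foxp3, Cd4, Il2ra and Zbtb7b were not among the 11162 genes listed, so no value was read for them. The summed level of Ctla4 and Cd40lg was 15.8 to 25.6 RPKM in GFP-hi and 36.5 to 48.2 RPKM in GFP-lo libraries. That sum was set mostly by Cd40lg, which fell (log2 fold change -1.13, limma adjusted p = 0.011). Cd40lg does not mark regulatory cells alone, so the sum is not a measure of them. Ctla4 had 1.63 to 3.09 RPKM in GFP-hi and 1.07 to 1.85 RPKM in GFP-lo libraries, and the groups overlapped. It passed without GFP-hi replicate 3 (0.73, limma adjusted p = 0.042).

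Of 10 B cell markers, 3 were listed, with a sum of 12.6 to 14.2 RPKM in GFP-hi and 11.0 to 11.4 RPKM in GFP-lo libraries. Nearly all of it was Cd79b, whose log2 fold change of 0.26 did not pass (limma, adjusted p = 0.075). Ms4a1 and Cd22 lay at means of 0.358 and 0.151 RPKM. The sum moved with the population, as Ikzf3 did, and its part in the Aiolos values was not tested. Of 9 thymocyte markers 6 were listed, with a sum of 148 to 164 RPKM in GFP-hi and 141 to 147 RPKM in GFP-lo libraries. Most of that sum was Cd8a, the gene of a sort marker, at 93.3 to 107 and 90.9 to 96.8 RPKM, so the sum is not a measure of thymocytes. Ccr9, a chemokine receptor gene, rose (0.67, limma adjusted p = 0.010), a call lost without replicate 2 of both groups (0.081). Dntt lay at 1.07 to 1.48 RPKM in GFP-hi and 1.75 to 2.34 RPKM in GFP-lo libraries without passing. Rag1 overlapped between groups, at 0.031 to 0.673 RPKM in GFP-hi and 0.021 to 0.572 RPKM in GFP-lo libraries. These levels were too low to be tested and near the nasal receptor medians given with Ikzf4.

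Of 9 NK cell markers 3 were listed, with sums of 5.87 to 9.20 and 6.44 to 8.99 RPKM in GFP-hi and GFP-lo libraries. Most of these sums was Eomes, also on the list of T-cell fate factors, at 5.49 to 8.14 and 5.86 to 7.68 RPKM. Of 8 gamma-delta T cell markers 2 were listed, with sums of 2.33 to 3.12 and 3.92 to 5.27 RPKM, and Cd163l1 fell (-0.67, limma adjusted p = 0.029). That call held without GFP-hi replicate 2 and was lost without each other library (adjusted p = 0.052 to 0.089) and without replicate 2 of both groups (0.081). Of 10 myeloid markers 3 were listed, with sums of 20.5 to 25.8 and 20.6 to 22.5 RPKM, and neither of the 2 tested passed limma or had an unadjusted p under 0.05. Of 7 erythroid markers 2 were listed, with sums of 4.36 to 5.74 and 2.38 to 3.55 RPKM, and Car2, a carbonic anhydrase gene, rose (0.73, limma adjusted p = 0.0036), a call lost without replicate 2 of both groups (0.055).

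Cell cycle genes moved with the population too. Of 20 genes listed, 16 were tested, 11 were higher and none lower, with a median log2 fold change of 0.82. Without GFP-hi replicate 1, and likewise without GFP-hi replicate 3, 6 of 13 tested were higher, with a median of 0.38. Some of the 16 genes thus reached the minimum of 1 RPKM through their GFP-hi values. At a minimum mean of 5 RPKM, 4 of 8 tested genes were higher and none lower, with a median of 0.34. The summed level of the 20 cell cycle genes was 250 to 281 RPKM in GFP-hi and 190 to 205 RPKM in GFP-lo libraries. The sum over 19 listed heat-shock and dissociation genes was 3565 to 7774 RPKM in GFP-hi and 4470 to 8640 RPKM in GFP-lo libraries. Beside 1885 of the 9351 genes tested, 1 of the 19 had an unadjusted p under 0.05, and none of the 19 passed limma. Without replicate 2 of both groups, 3 of them fell: Hspa1a by 0.52 (adjusted p = 0.046), and the immediate-early genes Jun by 0.48 (0.032) and Junb by 0.54 (0.032). Junb also fell without GFP-hi replicate 2 alone (adjusted p = 0.017). The part of these lists and of dividing cells in the Ikzf2, Ikzf3 and Ikzf4 values was not tested.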

How the data were processed

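RNA-seq was deposited by the authors as RPKM values, 1 column for each of 6 libraries, per the file headers. STAR and the build mm10 are named, without versions, per the submitters' processing notes; the read counter and annotation are not given in the sources used here. For 14 genes the symbol had become a date and 1 gene had none; these were restored by Entrez ID from RefSeq (GRCm38.p6), which also gave coordinates. Depth was recovered from the step that 1 read makes in values of at most 150 reads, for 724 genes with a single GENCODE M21 transcript: 90.8% to 93.9% of values came out whole to within 0.1 read, where 20% would by chance. Depth limits precision to counting error at best, since reads include PCR copies.

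Genes that averaged 1 RPKM or more (9351; 1811 left out) were tested with limma 3.58.1 in R 4.3.3 (two-sided, mean-variance trend) on log2(RPKM + 1), GFP-hi against GFP-lo, unpaired, with Benjamini-Hochberg adjustment over all genes tested. The fit was checked on simulated data. The text names every family member and each gene of 7 partner, target and companion lists with an adjusted p under 0.05. It also names up to 3 of the most abundant genes of each list, the 5 closest profiles to Ikzf2, and listed markers. Hdac1, Crbn, Ifng, Pstk, Pdcd1 and the regulatory T cell genes Ctla4, Tnfrsf18, Tnfrsf4, Gpr83 and Nrp1 were added. The members and lists were chosen with earlier results of these data known. Alternatives changed the pseudocount, minimum, scaling, variance model and libraries. Figures used matplotlib 3.10.9.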

Additional observations from a re-analysis of the deposited data

How the results depend on the processing

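The 16 alternatives were read for the 5 members, the 13 named genes that passed the test and the number of genes that differed. No member changed sign in a fit that held it. The pseudocount moved the 2 members with low RPKM: with 0.1 the log2 difference was 1.49 for Ikzf2 and 0.89 for Ikzf4, and with 0.5 it was 1.24 and 0.47. This follows from the scale, since a smaller pseudocount compresses low values less. Leaving out 1 library gave 0.94 to 1.10 for Ikzf2, 0.48 to 0.52 for Ikzf3, 0.27 to 0.32 for Ikzf4, -0.12 to -0.03 for Ikzf1 and -0.17 to -0.08 for Ikzf5.

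The number of genes that differed, 230 higher and 139 lower, was less stable. It was 119 and 83 with a mean RPKM of at least 5, where fewer genes were tested, and 47 and 43 without replicate 2 of both groups, with 4 libraries. Leaving out 1 library gave 73 to 173 higher and 60 to 125 lower genes, with the fewest higher genes without GFP-lo replicate 2 and the fewest lower genes without GFP-hi replicate 1. Trimmed mean of M values scaling gave 203 higher and 184 lower. Of the 13 named genes, 5 kept their call in every fit that tested them and 8 lost it in at least 1. Depth limits Ikzf4 most, at 5.31 to 17.1 reads per kilobase. No paired analysis was possible because the labels give no replicate numbers: those used here follow record order and only name libraries. Like-numbered libraries of the 2 populations did lie close in some genes, such as Nr4a1, with 56.6, 90.9 and 37.0 RPKM across GFP-hi and 63.1, 84.9 and 33.8 RPKM across GFP-lo replicates 1 to 3; whether they share a source is not given, and the unpaired fit does not use it.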
